A study of Mus musculus with 24 samples.

Results

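Dbp, Tef, Hlf, Nfil3, Bhlhe40 and Bhlhe41 are transcription factor genes that carry the output of the circadian clock, and their RNA was measured in the dorsal hippocampus of WT and CBP KIX/KIX mice. The 6 genes were chosen by name from the 51826 gene identifiers of the count table, as the PAR bZIP family, its antagonist and the pair of basic helix-loop-helix repressors. CBP KIX/KIX mice carry a mutation of the KIX domain of the coactivator CBP throughout the body, and their WT littermates served as controls. The study asked which genes depend on this domain after learning and in the homecage.

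The 24 libraries came from mice of 2 to 4 months on a C57BL/6j background, all labelled male, while the study's methods name both sexes for its experiments. RNA-Seq 1, made with ribosomal depletion, held 3 WT homecage, 3 WT MWM (Morris water maze) and 3 CBP KIX/KIX MWM libraries. RNA-Seq 2, made with polyA selection, held 3 WT homecage, 4 WT CFC (contextual fear conditioning) and 8 CBP KIX/KIX libraries, 4 from CFC and 4 from homecage mice, and the labels of the last group do not name the kind of library. Total counts were 38174044 to 65709282 per library in RNA-Seq 1 and 15385836 to 46056290 in RNA-Seq 2. The study's methods place all deaths for gene expression in the light phase, between zeitgeber time (ZT, hours after lights on) 3 and 6. Trained mice were killed 1 h after training. The labels give no time of death for each mouse. The 6 genes had between 144 and 44871 counts in every library, so all of them passed the filter on low counts in every comparison.

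The clock is a feedback loop. CLOCK and BMAL1 (the product of Arntl) bind E-boxes and switch on the period and cryptochrome genes, whose products then repress CLOCK and BMAL1. The same E-boxes drive Dbp, Nr1d1 and the Bhlhe genes. DBP, TEF and HLF are the PAR bZIP activators and bind D-boxes, NFIL3 (E4BP4) represses through the same D-boxes, and BHLHE40 and BHLHE41 (DEC1 and DEC2) compete for E-boxes. CBP is recruited to many promoters, among them those that carry a cAMP response element (CRE), where phosphorylated CREB binds its KIX domain.

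The windows from 250 bases before to 50 bases after the RefSeq start sites (GRCm38.p6) are shown for 4 of the genes, because the clock and CREB act through short sequence elements. A window was given for 5 of the 6 genes. Capitals mark each E-box (CACGTG) or full CRE (TGACGTCA), searched on both strands. The windows lie at chr7:45704997-45705296 (plus strand) for Dbp, chr15:81802423-81802722 (plus strand) for the first start site of Tef, chr11:90390868-90391167 (minus strand) for Hlf and chr6:145865371-145865670 (minus strand) for Bhlhe41.
Dbp: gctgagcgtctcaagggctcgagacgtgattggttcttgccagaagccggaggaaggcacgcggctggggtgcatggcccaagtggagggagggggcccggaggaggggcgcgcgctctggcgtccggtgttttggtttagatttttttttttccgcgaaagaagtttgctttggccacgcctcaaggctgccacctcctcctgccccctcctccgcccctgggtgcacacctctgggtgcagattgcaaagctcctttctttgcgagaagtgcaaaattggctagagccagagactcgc
Tef: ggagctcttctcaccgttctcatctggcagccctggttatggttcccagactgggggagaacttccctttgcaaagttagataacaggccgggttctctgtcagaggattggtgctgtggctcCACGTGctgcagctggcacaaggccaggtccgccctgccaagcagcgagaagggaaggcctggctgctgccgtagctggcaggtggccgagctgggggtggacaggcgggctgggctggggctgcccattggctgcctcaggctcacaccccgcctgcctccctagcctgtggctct
Hlf: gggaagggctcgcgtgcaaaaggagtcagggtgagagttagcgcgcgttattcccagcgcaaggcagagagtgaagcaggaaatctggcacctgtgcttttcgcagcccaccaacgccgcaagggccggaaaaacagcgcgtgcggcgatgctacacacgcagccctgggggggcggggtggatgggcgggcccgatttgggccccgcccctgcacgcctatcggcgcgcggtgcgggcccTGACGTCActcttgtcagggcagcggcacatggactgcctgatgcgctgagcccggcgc
Bhlhe41: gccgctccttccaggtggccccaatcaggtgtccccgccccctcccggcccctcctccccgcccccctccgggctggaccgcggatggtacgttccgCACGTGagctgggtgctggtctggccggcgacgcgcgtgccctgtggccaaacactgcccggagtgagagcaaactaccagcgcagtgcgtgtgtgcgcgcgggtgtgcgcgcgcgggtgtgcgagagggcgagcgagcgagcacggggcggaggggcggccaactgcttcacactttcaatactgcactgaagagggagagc
Tef and Bhlhe41 held an E-box, which began at position -127 and -153 relative to the start site, and a second start site of Tef held one at position -138. An E-box was in 7.15% of the 32851 windows of all genes. Hlf held a full CRE that began at position -9, which 1.79% of the windows held. The core TGACG of the CRE, which the full site contains, was in the Hlf window and once in that of Nfil3, at position -59, and in 20.8% of all windows. The Dbp window held none of these letters, and neither D-box form searched (TTATGTAA, in 0.938% of windows, and TTACGTAA, in 0.119%) was in the window of any member. The genes themselves lie at chr7:45705088-45710203 (Dbp), chr15:81802421-81826863 (Tef), chr11:90336536-90390895 (Hlf), chr13:52967209-52981073 (Nfil3), chr6:108660629-108666925 (Bhlhe40) and chr6:145858243-145865558 (Bhlhe41) of GRCm38. These matches describe the windows and were not tested against the values that follow. Sites outside the windows, such as in the body of a gene, were not searched.

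By group, levels are CPM (a count divided by its library total and put on one common scale) after upper-quartile normalization, and between genes they are compared per kilobase (kb) of exon. In WT homecage mice of RNA-Seq 2, Tef had 47.7 ± 4.13 CPM per kb (SD, n = 3), above Hlf with 21.5 ± 1.67, Bhlhe40 with 21.3 ± 1.63 and Dbp with 12.5 ± 2.43. Bhlhe41 had 4.17 ± 0.0900 CPM per kb and Nfil3 had 3.93 ± 0.424. Tef was thus the most abundant of the 6, while Hlf and Bhlhe40 differed by less than their SD. Bhlhe41 and Nfil3 differed by less than the SD of Nfil3 but by more than that of Bhlhe41. The last pair changed order between groups, and in WT homecage mice of RNA-Seq 1 Bhlhe41 had 3.55 ± 0.471 and Nfil3 4.79 ± 0.546 CPM per kb. The experiments, which differ in library type, task and run, had different levels: the mean CPM of WT homecage mice was 2.29 times higher in RNA-Seq 1 than in RNA-Seq 2 for Tef, 1.63 times higher for Dbp and 0.657 times as high for Hlf. Groups were therefore compared within an experiment or with the experiment as a term.

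**Figure D1:**
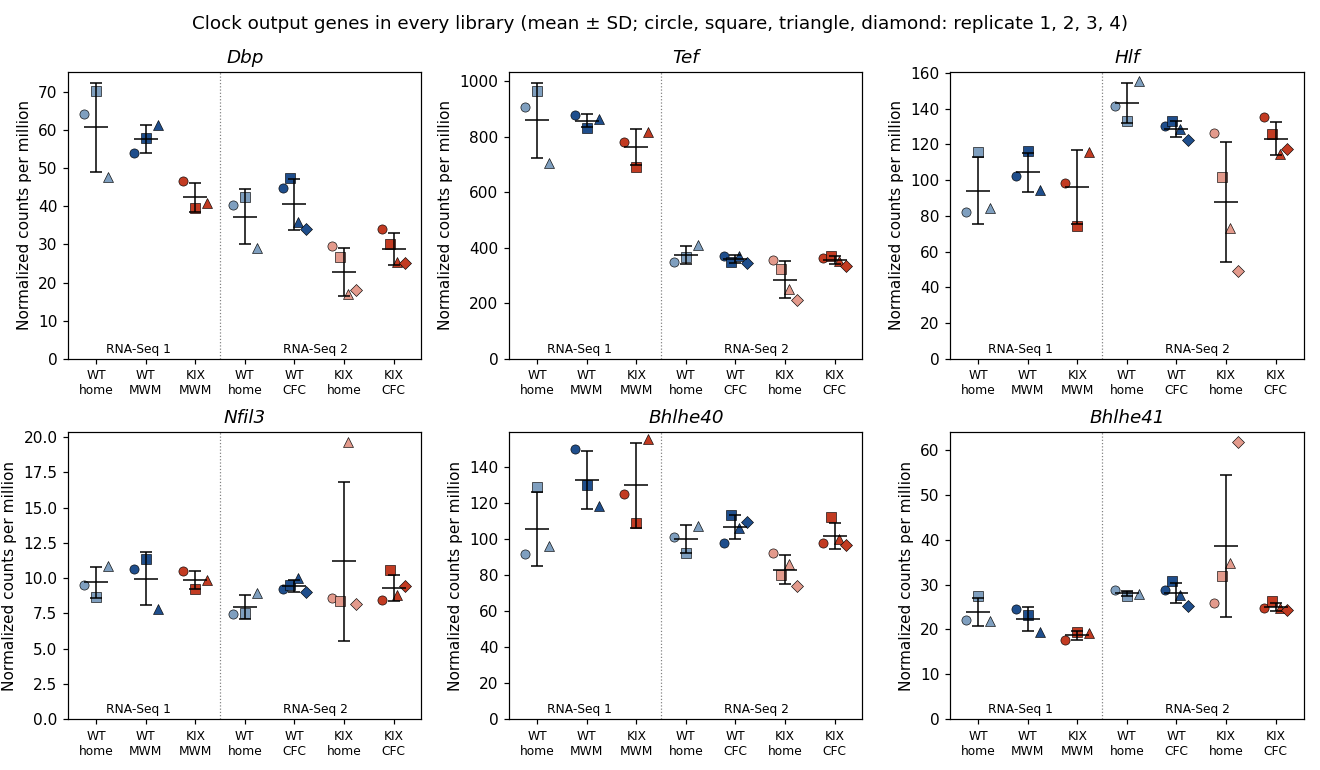
CPM after upper-quartile normalization (linear axis from 0) of the 6 genes in each of the 24 libraries, by group, with the mean and SD of each group as bars. Dbp lay between 39.5 and 46.6 in the CBP KIX/KIX MWM libraries, below all 3 WT MWM libraries (54.0 to 61.4), and the CBP KIX/KIX homecage libraries were spread widely for Hlf (49.3 to 126) and Bhlhe41 (26.0 to 61.8).

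In RNA-Seq 2 the CBP KIX/KIX homecage libraries 2, 3 and 4 stood apart. Gfap, the astrocyte filament gene, had 304 CPM in library 1 but 554, 800 and 1442 CPM in libraries 2, 3 and 4, against 290 to 335 CPM in the 7 WT libraries. Fos, an immediate-early gene, had 105 CPM in library 3 and 1.64 to 4.32 CPM in the other 3. Of the 5 astrocyte markers, Aqp4 also spanned more in this group (104 to 231 CPM, against 106 to 122 in WT homecage mice), while Slc1a3 (510 to 537 CPM, against 523 to 541) and Gja1 (181 to 200 CPM, against 187 to 195) did not stand apart. The summed level of the 5 was 1183 to 2434 CPM in this group and 1168 to 1210 CPM in WT homecage mice, with no marker at 0. Of that sum in this group, Gfap alone made up 304 to 1442 CPM. Against WT homecage mice 3 of the 5 markers had a negative and 2 a positive log2 fold change, with a median of -0.01. Results that rest on the CBP KIX/KIX homecage group are given with and without libraries 3 and 4. Library 2 was kept in those fits. Values that changed sign without libraries 2, 3 and 4, which leaves library 1 alone in the group, are given at the end.

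The main question was whether the KIX mutation changed these genes after learning. After training, Dbp and Bhlhe41 were lower in the mutants than in WT littermates, and the other 4 genes did not pass the test. Over both experiments 2 of the 6 genes were called lower and 0 higher at an adjusted p under 0.05, where 2.42% of the 21489 genes tested were called in either direction and 1.44% were called lower. The median log2 fold change of the 6 was -0.08, and that of all genes tested was -0.01. As the tissue was sequenced in bulk, fewer cells of a type and less RNA per cell cannot be told apart.

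Dbp, the PAR bZIP activator with the widest daily swing in many tissues, had 54.0, 57.9 and 61.4 CPM in the WT MWM libraries and 46.6, 39.5 and 41.0 CPM in the CBP KIX/KIX MWM libraries. After CFC it had 44.7, 47.4, 35.9 and 33.9 CPM in WT mice and 34.0, 30.2, 25.4 and 25.3 CPM in CBP KIX/KIX mice. The genotypes did not overlap after MWM, and after CFC the highest CBP KIX/KIX library and the lowest WT library were nearly equal. In both genotypes the CFC replicates 3 and 4, which had 16818087 to 20568337 counts against at least 30143949 in replicates 1 and 2, lay below replicates 1 and 2. The log2 fold change was -0.47 (SE 0.05, a 0.723-fold level, adjusted p = 0.000589, edgeR quasi-likelihood test with Benjamini-Hochberg adjustment), which placed Dbp at rank 8 of the 21489 genes by p. An exact two-sided permutation test of the labels within each experiment gave p = 0.00286 over 1400 arrangements, where the smallest p it can give is 0.00143. Fitted alone, RNA-Seq 1 gave -0.44 (edgeR adjusted p = 0.433) and RNA-Seq 2 gave -0.49 (edgeR adjusted p = 0.766). The experiments thus gave similar sizes, and the edgeR interaction of genotype with experiment was -0.05 (SE 0.17, adjusted p = 0.957). Without the factors of unwanted variation the log2 fold change was -0.47 with an adjusted p of 0.0536 (edgeR), and 4 of 21489 genes were called (0.0186%), none of them a member.

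Dbp shares 539 bases of exon with Sphk2 on the opposite strand, and whether the counting used strand is not stated. Sphk2, a sphingosine kinase gene, had 61.0 to 67.4 CPM in WT and 50.6 to 68.6 CPM in CBP KIX/KIX mice after MWM. After CFC it had 27.1 to 29.3 CPM in WT and 28.5 to 29.7 CPM in CBP KIX/KIX mice. The genotypes overlapped for Sphk2 in both experiments.

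Bhlhe41, the E-box repressor also known as DEC2, had 24.5, 23.1 and 19.4 CPM in the WT MWM libraries and 17.6, 19.4 and 19.1 CPM in the CBP KIX/KIX MWM libraries. After CFC it had 28.8, 30.7, 27.8 and 25.3 CPM in WT mice and 24.9, 26.3, 24.8 and 24.3 CPM in CBP KIX/KIX mice. The MWM groups met at 19.4 without crossing and the CFC groups overlapped. The log2 fold change was -0.21 (SE 0.05, 0.867-fold, adjusted p = 0.0493, edgeR), just inside the threshold. An exact two-sided permutation test gave p = 0.00571 over 1400 arrangements. The call was lost without factors (edgeR adjusted p = 0.289), with 2 factors (0.0913), with GC-content normalization (0.0951) and in 8 of the 14 fits that left out a library, namely WT MWM 1, CBP KIX/KIX MWM 1 and 3, WT CFC 1, 2 and 3, and CBP KIX/KIX CFC 3 and 4 (adjusted p = 0.0607 to 0.102, edgeR). Bhlhe41 shares 1280 exonic bases with Gm43909 on the opposite strand, whose level is not given here. Tef shares 193 such bases with Gm17597 and Bhlhe40 shares 118 with 0610040F04Rik, also on the opposite strand.

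**Figure D2:**
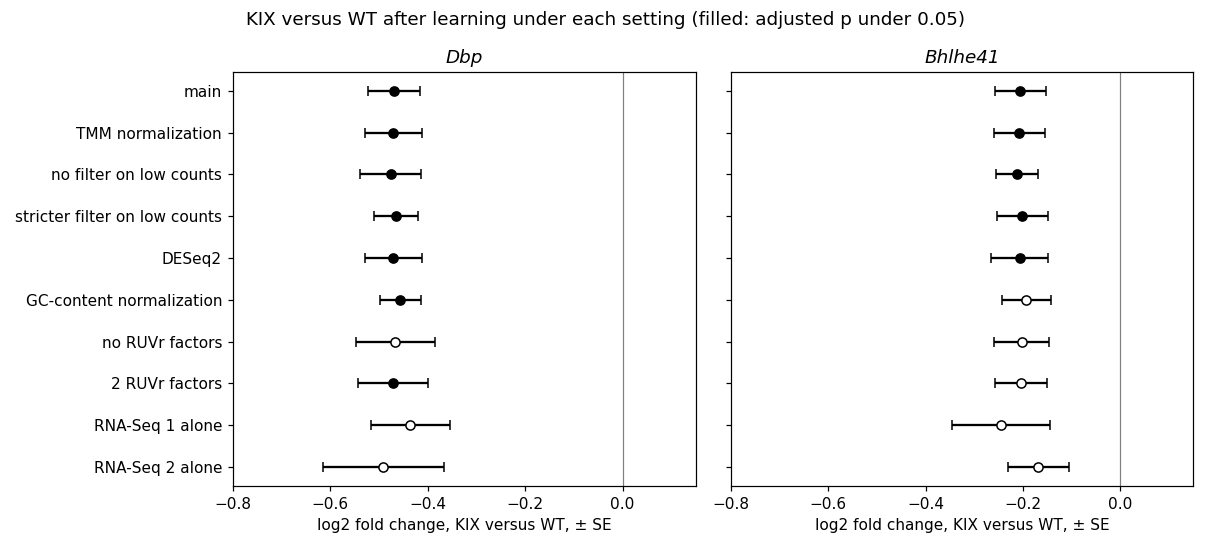
Fitted log2 fold change (CBP KIX/KIX against WT after learning, with its SE) of Dbp and Bhlhe41, filled where the adjusted p was under 0.05. Fits with a replicate block, and those that left out a library, are not shown. Among the settings shown the point for Dbp stayed between -0.49 and -0.44 and that for Bhlhe41 between -0.25 and -0.17. Among them both calls were lost without factors and in each experiment alone. That of Bhlhe41 was also lost with 2 factors and with GC-content normalization.

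The remaining PAR bZIP activators did not pass the test. Tef had 879, 832 and 862 CPM in WT and 782, 692 and 818 CPM in CBP KIX/KIX mice after MWM, and after CFC 371, 349, 370 and 346 CPM in WT and 362, 369, 352 and 336 CPM in CBP KIX/KIX mice. The MWM groups did not overlap and the CFC groups did, and the log2 fold change of -0.08 (SE 0.03, adjusted p = 0.158, edgeR) did not pass. Hlf had 102, 116 and 94.6 CPM in WT and 98.6, 74.6 and 116 CPM in CBP KIX/KIX mice after MWM, and after CFC 122 to 133 CPM (n = 4) and 115 to 135 CPM (n = 4). Its groups overlapped in both experiments, with a log2 fold change of -0.09 (SE 0.04, adjusted p = 0.315, edgeR).

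Nfil3, the repressor of D-boxes, had 10.6, 11.4 and 7.83 CPM in WT and 10.5, 9.19 and 9.84 CPM in CBP KIX/KIX mice after MWM, and 9.02 to 9.97 CPM and 8.45 to 10.6 CPM after CFC. Its log2 fold change was -0.01 (SE 0.07, adjusted p = 0.953, edgeR). The log2 ratio of Dbp to Nfil3 was 2.55 ± 0.36 in WT and 2.10 ± 0.05 in CBP KIX/KIX mice after MWM (SD, n = 3), and 2.08 ± 0.24 and 1.61 ± 0.26 after CFC (SD, n = 4). Bhlhe40, the other DEC gene, had 150, 130 and 118 CPM in WT and 125, 109 and 155 CPM in CBP KIX/KIX mice after MWM, and 97.6 to 113 CPM and 96.8 to 112 CPM after CFC. Its groups overlapped in both experiments, and its log2 fold change was -0.05 (SE 0.05, adjusted p = 0.70, edgeR).

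By range alone, the CBP KIX/KIX libraries lay below all WT libraries after MWM for 3 of the 6 genes (Dbp, Tef and Bhlhe41), as they did for 9.26% of the 21489 genes. After CFC this held for 0 of the 6, and for 1.21% of all genes. The interaction of genotype with experiment was called by edgeR for 0 of the 6 genes and for 0% of all genes, with 0 of the 6 and 1389 of all genes at an unadjusted p under 0.05, and DESeq2 also called 0.

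The genes upstream of these outputs were read from lists of clock genes. Without the factors no gene of the 24 lists of clock, response and cell type genes was called by edgeR, with medians of -0.28 for the period and cryptochrome repressors and -0.27 for the immediate-early genes, close to those with the factors. Of the 6 period and cryptochrome repressors 4 were lower and 0 higher (median log2 fold change -0.28), led by Ciart at -0.45 (SE 0.08, adjusted p = 0.0127, edgeR), Per2 at -0.31 (SE 0.05, 0.0069) and Per1 at -0.30 (SE 0.04, 0.00216). Of the 5 REV-ERB and ROR receptors, which repress and activate Arntl, Nr1d1 at -0.34 (SE 0.04, adjusted p = 0.000253, edgeR) and Nr1d2 at -0.21 (SE 0.04, 0.00853) were lower. Of the 3 core activators Clock was higher at 0.12 (SE 0.03, adjusted p = 0.0297, edgeR), and Arntl at 0.11 (SE 0.05, 0.245) did not pass. None of the 8 clock kinases and ubiquitin ligases was called.

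Downstream of the output factors, of 6 PAR bZIP targets known from liver and brain, such as the vitamin B6 kinase gene Pdxk, 1 was lower, the lipid receptor gene Ppara at -0.47 (SE 0.10, adjusted p = 0.0204, edgeR), and the median of the 6 was -0.04. None of the 5 tested C/EBP related factors, the 7 Hes and Hey repressors or the 8 glucocorticoid-responsive genes was called. Of 12 immediate-early genes 6 were lower, with Egr2 at -0.55 (SE 0.11, 0.0163), Fos at -0.51 (SE 0.06, 0.000936) and Dusp1 at -0.36 (SE 0.06, 0.00804) by edgeR adjusted p. Markers of some cell types also differed: Gfap (-0.29) and Aldh1l1 (-0.26) of the astrocyte list were lower and Gja1 (0.16) higher, and the interneuron gene Sst (-0.19), the CA1 gene Fibcd1 (-0.30) and the cortical gene Cux2 (-0.26) were lower, while the other 11 marker lists had no called gene. The 6 choroid plexus markers had a median of -0.59 without a call, and of -0.11 without the factors, where 4 were negative and 2 positive. The 5 blood markers (median -0.34) and the 3 CA1 markers (median -0.20) were at negative values and the 4 dentate gyrus markers (median 0.20) at positive ones, with and without the factors. Their part in the values of Dbp and Bhlhe41 was not tested. Crebbp, which encodes CBP itself, was at -0.01 (SE 0.04, adjusted p = 0.897, edgeR), and its RNA level does not show the point mutations.

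**Figure D3:**
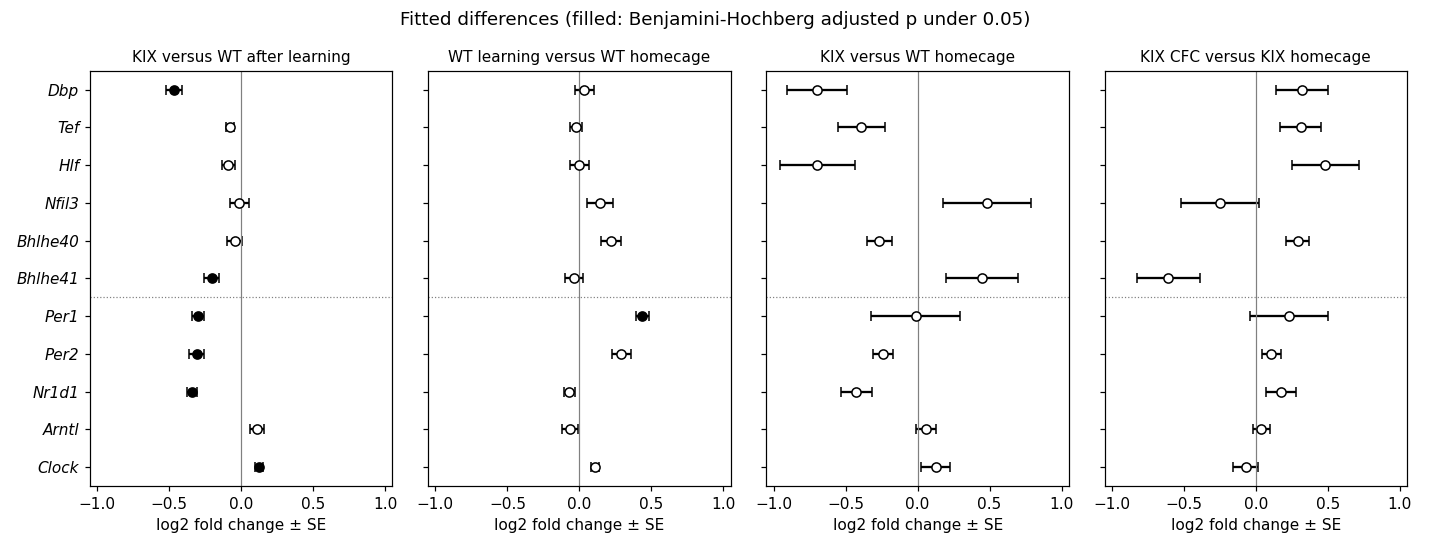
Fitted log2 fold change with its SE for the 6 output genes (above the dotted line) and 5 clock genes in 4 comparisons, filled where the edgeR adjusted p was under 0.05. After learning the filled points are Dbp, Bhlhe41, Per1, Per2, Nr1d1 and Clock, and in the homecage comparison and the CBP KIX/KIX training comparison none is filled.

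Learning itself was tested in WT mice, as MWM or CFC against homecage. None of the 6 genes was called by edgeR, where 0.794% of 22038 genes were. DESeq2 called 1 of the 6 and 756 of all genes. An unadjusted edgeR p under 0.05 was found for 1 of the 6 and for 3721 of all genes, a like share. That gene was Bhlhe40, a gene known to respond to neuronal activity. It had 91.6, 129 and 96.1 CPM in WT homecage and 150, 130 and 118 CPM in WT MWM libraries, and 101, 92.1 and 107 CPM in WT homecage and 97.6, 113, 106 and 110 CPM in WT CFC libraries. The groups overlapped in both experiments, with a log2 fold change of 0.22 (SE 0.07, adjusted p = 0.132, edgeR). Same-numbered libraries varied together here, and with the replicate number as a block and the same factors its edgeR adjusted p was 0.0339, while 992 genes were called against 175 without the block. DESeq2 gave an adjusted p of 0.018.

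Dbp did not pass the test for training in WT mice. It had 64.3, 70.3 and 47.6 CPM in the homecage libraries of RNA-Seq 1 and 40.3, 42.5 and 29.0 CPM in those of RNA-Seq 2, which overlapped the trained libraries in each experiment. Its log2 fold change was 0.03 (SE 0.07, adjusted p = 0.84, edgeR). Tef at -0.02 (SE 0.04), Hlf at 0.00 (SE 0.07), Bhlhe41 at -0.04 (SE 0.06) and Nfil3 at 0.14 (SE 0.09) had edgeR adjusted p-values of 0.838, 0.995, 0.80 and 0.466. In the same comparison all 12 immediate-early genes were higher, with Egr2 at 2.59, Fos at 1.94 and Arc at 1.28, and Per1 was higher at 0.44 (SE 0.04, adjusted p = 0.00037, edgeR). Without the factors all 12 stayed positive and 6 of them were called. None of the 6 period and cryptochrome repressors, Per1 among them, was then called. The interaction of learning with experiment was called for 0.0136% of genes and for 0 of the 6, of which 0 had an unadjusted p under 0.05 and DESeq2 called 0.

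In the homecage, CBP KIX/KIX and WT mice of RNA-Seq 2 were compared. None of the 6 genes was called by edgeR or by DESeq2, where edgeR called 0.0107% of 18682 genes, and an unadjusted p under 0.05 was found for 4 of the 6 and 1144 of all genes. Dbp had 40.3, 42.5 and 29.0 CPM in WT and 29.5, 26.7, 17.0 and 17.9 CPM in CBP KIX/KIX mice, and only the highest CBP KIX/KIX library reached into the WT range. Its log2 fold change was -0.70 (SE 0.21, adjusted p = 0.786, edgeR) and -0.42 (SE 0.15) without libraries 3 and 4. With replicates 3 and 4 left out of both genotypes it was -0.56 (SE 0.08, adjusted p = 0.323, edgeR). An exact two-sided permutation test gave p = 0.0857, and with 35 arrangements the smallest p is 0.0286. The study itself reported lower Dbp in homecage mutants, in microarrays of whole hippocampus and by quantitative PCR.

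Hlf had 141, 133 and 155 CPM in WT and 126, 102, 73.0 and 49.3 CPM in CBP KIX/KIX homecage mice, with no overlap. Its log2 fold change was -0.70 (SE 0.26, adjusted p = 0.798, edgeR), and -0.32 (SE 0.10) without libraries 3 and 4. Tef had 348, 366 and 411 CPM in WT and 356, 323, 250 and 212 CPM in CBP KIX/KIX mice, and its log2 fold change was -0.39 (SE 0.16) with and -0.14 (SE 0.09) without those libraries. Hlf and Tef were thus lowest in the libraries in which Gfap was highest. Summed markers of some brain regions also differed. Neocortex markers had 73.1 to 80.8 CPM in CBP KIX/KIX and 94.4 to 102 CPM in WT homecage mice. Thalamus markers had 24.3 to 44.2 and 47.1 to 50.6 CPM. CA3 markers lay the other way, with 403 to 433 and 352 to 386 CPM. The 4 neocortex markers were all negative, with a median log2 fold change of -0.33, and -0.32 without libraries 3 and 4. The part of Gfap and of these regions in the values of Dbp, Hlf and Tef was not tested.

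Bhlhe41 ran the other way, with 28.7, 27.5 and 27.9 CPM in WT and 26.0, 32.0, 34.9 and 61.8 CPM in CBP KIX/KIX homecage mice. Its log2 fold change was 0.45 (SE 0.25, adjusted p = 0.816, edgeR) and was 0.05 (SE 0.09) without libraries 3 and 4. Nfil3 had 7.45, 7.50 and 8.96 CPM in WT and 8.62, 8.35, 19.6 and 8.18 CPM in CBP KIX/KIX mice, so that its value of 0.48 (SE 0.31) came with 1 high library, the one with high Fos, and was 0.11 (SE 0.12) without libraries 3 and 4. Bhlhe40 had 101, 92.1 and 107 CPM in WT and 92.1, 80.2, 86.3 and 73.7 CPM in CBP KIX/KIX mice, at -0.27 (SE 0.09) with and -0.21 (SE 0.08) without those libraries. Of the clock genes, Nr1d1 at -0.43 (SE 0.11, adjusted p = 0.683, edgeR), Per2 at -0.24 (SE 0.07, 0.786), Clock at 0.13 (SE 0.10, 0.873), Arntl at 0.06 (SE 0.07, 0.926) and Per1 at -0.01 (SE 0.31, 0.999) did not pass either.

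Training in CBP KIX/KIX mice, CFC against homecage, called 0.0113% of 17717 genes and 0 of the 6 by edgeR, with 0 by DESeq2. An unadjusted p under 0.05 was found for 2 of the 6 and 1670 of all genes. The 2 were Bhlhe40 at 0.29 (SE 0.08, adjusted p = 0.491, edgeR), whose 4 CFC libraries (96.8 to 112 CPM) all lay above the 4 homecage libraries, and Bhlhe41 at -0.61 (SE 0.22, adjusted p = 0.491, edgeR). Without libraries 3 and 4 they were 0.24 (SE 0.08) and -0.21 (SE 0.09). Dbp was at 0.32 (SE 0.18) and at 0.04 (SE 0.12) without them, Tef at 0.31 (SE 0.14) and 0.06 (SE 0.07), Hlf at 0.48 (SE 0.23) and 0.11 (SE 0.10), and Nfil3 at -0.25 (SE 0.27) and 0.13 (SE 0.12). Same-numbered libraries varied together here, and in the 4 pairs Dbp, Tef, Hlf and Bhlhe40 were each higher after CFC in 4 and Bhlhe41 lower in 4. With the replicate number as a block Dbp was at 0.35 (SE 0.09), Tef at 0.34 (SE 0.11), Hlf at 0.56 (SE 0.17), Bhlhe40 at 0.29 (SE 0.07) and Bhlhe41 at -0.53 (SE 0.18), with edgeR adjusted p-values of 0.414 to 0.442 and no call. Leaving out homecage libraries 3 and 4 alone kept their CFC partners, in which Dbp was lower than in CFC libraries 1 and 2. With replicates 3 and 4 left out of both groups, Dbp was at 0.19 (SE 0.10), Tef at 0.10 (SE 0.08), Hlf at 0.19 (SE 0.11), Bhlhe40 at 0.28 (SE 0.10) and Bhlhe41 at -0.19 (SE 0.11), again with no call. The comparison shares its homecage libraries with the one before and its CFC libraries with the one after learning.

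The test of whether training acted differently in the 2 genotypes of RNA-Seq 2 called 0% of 18851 genes by edgeR (903 at an unadjusted p under 0.05) and 1 by DESeq2. Of the 6 genes 0 were called by either tool and 3 had an unadjusted p under 0.05, namely Hlf at 0.64 (SE 0.28), Tef at 0.38 (SE 0.18) and Bhlhe41 at -0.61 (SE 0.27), each with an edgeR adjusted p of 0.95. Without libraries 3 and 4 these were 0.26 (SE 0.11), 0.12 (SE 0.09) and -0.23 (SE 0.11). For Dbp the interaction was 0.21 (SE 0.26) and -0.08 (SE 0.22) without those libraries, and 0.04 (SE 0.12) without replicates 3 and 4 of every group, so that the difference between the genotypes was not shown to depend on training.

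Across libraries the genes were compared by Pearson's r of log2 CPM after the mean of each experiment was taken out, as a description, since the 24 libraries share groups, depth and preparation. Tef and Hlf varied most alike (r = 0.90), followed by Dbp with Tef (0.75), Hlf with Bhlhe40 (0.71) and Dbp with Hlf (0.69). Dbp and its antagonist Nfil3 had r = -0.46. Without the 4 CBP KIX/KIX homecage libraries (n = 20) these became 0.59, 0.46, 0.65, 0.30 and -0.30. For Dbp and Bhlhe41 r turned from -0.28 to 0.68, for Tef and Bhlhe41 from -0.59 to 0.51, and for Hlf and Bhlhe41 from -0.66 to 0.40.

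**Figure D4:**
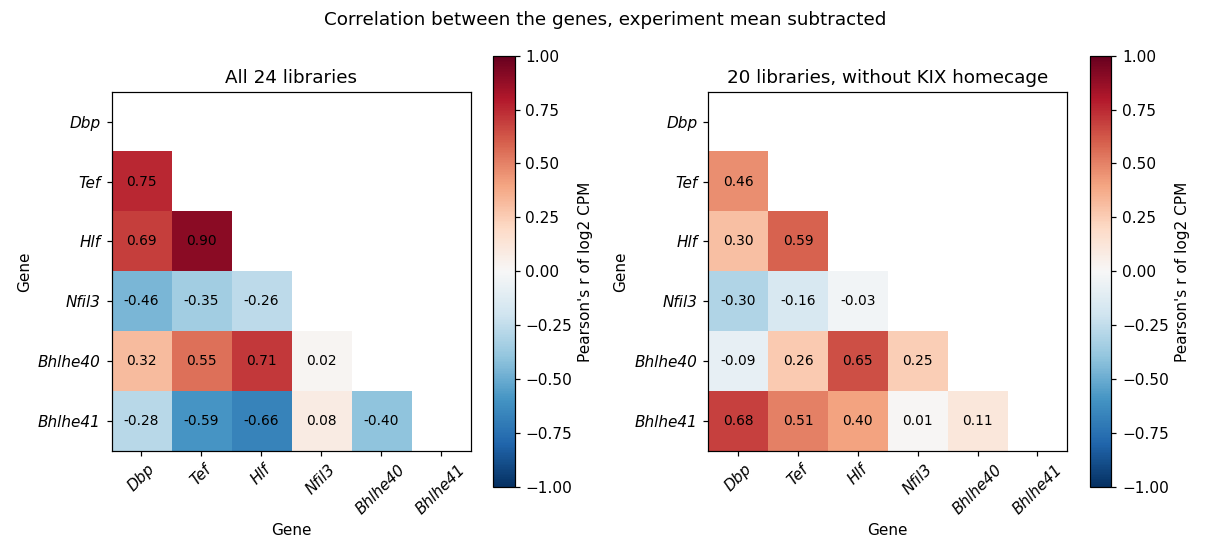
Pearson's r between the 6 genes over all 24 libraries (left) and over the 20 libraries without the CBP KIX/KIX homecage group (right), from log2 CPM with the mean of each experiment subtracted. Bhlhe41 changes from negative to positive r with Dbp (-0.28 to 0.68), Tef (-0.59 to 0.51) and Hlf (-0.66 to 0.40) when that group is left out.

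Among 22407 other genes, those most like Dbp over the 24 libraries were Ccdc184 (r = 0.86), Pbx4 (0.86) and Nrbp2 (0.85), and with the group means taken out these were 0.73, 0.82 and 0.80. Those most like Tef were Tub (0.94), Cys1 (0.92) and Epop (0.92), and those most like Hlf were Epop (0.92), Cys1 (0.91) and Tef itself (0.90). Without the CBP KIX/KIX homecage group these were 0.81, 0.71 and 0.72 for Tef, and 0.59, 0.57 and 0.59 for Hlf. Nfil3 was most like Fosb (0.81), Mcl1 (0.80) and Errfi1 (0.79), and without the CBP KIX/KIX homecage group its r with Fosb was 0.36. Bhlhe40 was most like Bcl6 (0.91), Depdc7 (0.85) and Ppp1r3g (0.78), with r of 0.89, 0.88 and 0.78 without that group. Bhlhe41 was most like Nefm (0.91), Ppm1h (0.91) and Timp1 (0.89), with r of 0.63, 0.76 and 0.55 without it. The neighbours of Bhlhe40 were thus the ones least altered by leaving that group out.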

How the data were processed

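RNA was measured in 24 libraries of 7 groups taken from the labels. The authors aligned reads with STAR and counted them per gene with featureCounts (1.4.4 per the submitters' notes), and deposited raw counts with no scaling. The 6 genes and the gene lists were chosen with earlier results of these data known. Genes were filtered with filterByExpr, scaled by upper quartile and tested with edgeR 4.0.16 in R 4.3.3 (quasi-likelihood, Benjamini-Hochberg, threshold 0.05). Genotype after learning was fitted with experiment and 4 RUVr factors, and learning in WT mice with experiment and 3. RUVr was written anew, without its package and without the GC-content step, which was tried apart with 10 bins. Other fits had no factors. The fits were also run on simulated counts drawn without unwanted variation, which cannot show how the factors act on these data. Levels are CPM and correlations used a prior count of 2. Genes named were the 6, 5 clock genes, up to 3 called genes with the largest change per list, 3 neighbours by r, overlapping genes and Crebbp. Same-numbered libraries correlated over 0.1 in every pair of WT MWM, WT CFC and CBP KIX/KIX CFC against homecage (lowest r 0.10, 0.19 and 0.15), so a fit with the number as a block was set beside these. No 2 libraries of a group were copies (chi-square per gene at least 2.74). The labels name no animal for a library, while the study counts them as animals, and p-values measure the spread between libraries. Alternatives were TMM, DESeq2 1.42.0, other filters, fewer factors, single experiments and leaving out libraries. Exons come from GENCODE M21 (GRCm38), in which 51633 of 51826 identifiers matched.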

Additional observations from a re-analysis of the deposited data

Results flagged for a closer look

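Nfil3 in the CBP KIX/KIX homecage group had 19.6 CPM in library 3, against 8.18 to 8.62 CPM in the other 3, a gap to its nearest neighbour that takes nearly the whole range of the group. It was the only such case among 18 sets of 4 libraries, and chance flags about 1 set in 20. The same library had 105 CPM of Fos.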

How the results depend on the processing

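After learning, 520 genes were called, against 253 without a filter, 886 by DESeq2, 168 with GC-content normalization, 131 with 2 factors, 4 without factors, 3 and 1 in RNA-Seq 1 and RNA-Seq 2 alone, and 201 to 881 with 1 library left out. Of the 6 genes 2 were called, against 1 with GC-content normalization, 1 with 2 factors, 0 without factors, 0 in either experiment alone, and 1 to 2 with 1 library left out. Dbp was at -0.47 without factors and at -0.44 and -0.49 in the single experiments, where its call was lost, and at -0.51 to -0.42 and called with any 1 library left out. Bhlhe41 lost its call at -0.19 (GC content), -0.20 (no factors), -0.20 (2 factors), -0.25 and -0.17 (RNA-Seq 1 and 2 alone), and ranged from -0.24 to -0.18 with 1 library left out. Lower against higher calls were 309 and 211, 288 and 159 with TMM, and 121 and 47 with GC-content normalization. For WT learning, 175 genes were called (103 lower, 72 higher), 43 lower and 76 higher with TMM, and 84 genes without a filter, 756 by DESeq2, 42 with GC-content normalization, 98 with 2 factors, 9 without, 3 and 21 in the single experiments, and 29 to 2415 with 1 library left out. DESeq2 called 1 of the 6 genes. In the homecage, 2 genes were called, 10 without a filter, 59 by DESeq2, 0 without libraries 2, 3 and 4, 0 without replicates 3 and 4 of both genotypes, and 0 to 7 with 1 left out. For CBP KIX/KIX training, 2 were called, 44 by DESeq2, 9 without libraries 3 and 4, 5 without 2, 3 and 4, and 0 to 155 with 1 left out. The genotype by training interaction had 0, 1 by DESeq2 and 0 to 63, and the learning by experiment interaction had 3, 1 with TMM, 7 without a filter, 29 by DESeq2 and 0 to 892. With the replicate number as a block, the calls after learning, where same-numbered libraries did not all correlate (r = -0.16 to 0.38), were 8 without factors (Bhlhe41 at -0.20, 1 of the 6 called) and 2880 with them (4 of the 6). The block gave 12 and 992 genes for WT learning (1 of the 6 with factors, with Hlf at 0.014 without and 0.024 with factors), 0 in the homecage and 6 for the learning by experiment interaction, and changed no other call of the 6 genes. Values near 0 that did not pass the test changed sign. After learning this was Nfil3 with GC content (0.024, and -0.076 to 0.034 with 1 library left out). For WT learning it was Dbp (-0.068 in RNA-Seq 1, and -0.038 to 0.095), Tef (0.0024 by DESeq2, 0.011 with GC content, 0.0026 in RNA-Seq 1, and -0.089 to 0.010), Hlf (0.015 with TMM, 0.0079 with a stricter filter, 0.025 by DESeq2, 0.15 in RNA-Seq 1, 0.0036 in the permutation, and -0.057 to 0.052) and Bhlhe41 (0.0090 in RNA-Seq 2, and -0.071 to 0.013). Without libraries 2, 3 and 4, Bhlhe41 in the homecage was at -0.11, and for CBP KIX/KIX training Dbp was at -0.042, Tef at -0.017, Hlf at -0.044 and Nfil3 at 0.10 (0.13 without 3 and 4, 0.16 without replicates 3 and 4 of both groups, and -0.37 to 0.15 with 1 left out). The Dbp genotype by training interaction was -0.077 without libraries 3 and 4 and -0.15 without 2, 3 and 4. For the genotype by experiment interaction Nfil3 was at 0.026 without a filter and 0.0024 by DESeq2, and with 1 library left out the ranges were -0.11 to 0.14 (Nfil3), -0.15 to 0.034 (Dbp), -0.10 to 0.20 (Hlf) and -0.15 to 0.11 (Bhlhe40). For the learning by experiment interaction they were -0.15 to 0.061 (Tef) and -0.012 to 0.17 (Bhlhe41). The cause of these changes was not tested. Leaving out the CBP KIX/KIX homecage libraries, or replicates 3 and 4 of every group, was chosen after seeing the data. Depth limits Nfil3 most, with 144 counts in the library where it had fewest.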
